A study of Caenorhabditis elegans with 2 samples.

Results

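Among the binding sites of the nuclear hormone receptor NHR-43 mapped by chromatin immunoprecipitation and sequencing (ChIP-seq), 584 lay inside introns of autosomal protein-coding genes, away from annotated gene starts. They were chosen by position alone: the summit, the base of highest signal in a peak, had to lie on an autosome, inside a protein-coding gene and in no exon of one. It also had to lie outside every promoter window (1000 bp upstream to 200 bp downstream of a gene's 5′ end) and over 500 bp from any tRNA gene. These 584 peaks were 19.2% (exact 95% interval 17.8 to 20.6) of the 3045 autosomal peaks, in a thresholded list of 3889 peaks. A further 51 intronic peaks near tRNA genes were left out. The comparison classes were 1362 autosomal promoter peaks, 358 exonic peaks and 657 intergenic peaks. Genotype and stage were the same in both samples: whole C. elegans hermaphrodites of strain OP477, genotype unc-119(tm4063) III; wgIs477, harvested as L3 larvae 36.5 h after synchronisation by L1 starvation. The integrated transgene wgIs477 encodes NHR-43 fused to GFP-FLAG at its C terminus, and chromatin was precipitated with an antibody to GFP, so all peaks report the tagged transgene product in an unc-119 mutant background. The 2 samples were biological replicates of 1 group, with no untagged, mutant or other-stage group to set beside them, and the control experiment that the labels list was not analysed here. Whole animals were used, so the cell types that contribute to a site cannot be told apart.

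Nuclear hormone receptors are transcription factors with a zinc-finger DNA-binding domain, which in many members recognises sites built around the core AGGTCA, and a domain that in many members binds a small lipophilic ligand. The family is greatly expanded in nematodes, and its members regulate fat metabolism, molting and detoxification. Introns can carry enhancers, alternative promoters of the same gene and nested genes for small nucleolar RNAs (snoRNAs), which guide the modification of other RNAs, or for microRNAs.

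The sequences around 9 summits show intronic sites with high signal, most of them picked for the motifs they hold, so they do not show how frequent the motifs are. Each runs 50 bp to either side of the summit on the + strand of WBcel235 (ce11), read from the RefSeq genome sequence. Capitals mark, on either strand, GAGAGA, the longer word CTGCGTCTC, the G+C-rich word CCGCCC, the GATA-type word TGATAA or the E-box CACGTG, which the tests described further on found more often at intronic summits than beside them. The first 4 are the 4 highest intronic peaks, and the others are among the highest that hold each of these motifs and were found in both replicates.
D2023.1, intron 4, chrV:11799353-11799453: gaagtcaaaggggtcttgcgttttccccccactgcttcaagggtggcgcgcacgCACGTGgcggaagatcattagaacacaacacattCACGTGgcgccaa
D2023.3, intron 3, chrV:11802580-11802680: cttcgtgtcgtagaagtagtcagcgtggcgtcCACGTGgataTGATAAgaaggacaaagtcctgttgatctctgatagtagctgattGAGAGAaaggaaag
pqn-41, intron 1, chrIII:1925309-1925409: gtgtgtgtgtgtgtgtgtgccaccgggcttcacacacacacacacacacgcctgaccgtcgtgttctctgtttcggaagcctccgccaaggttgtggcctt
pxn-1, intron 17, chrV:8500497-8500597: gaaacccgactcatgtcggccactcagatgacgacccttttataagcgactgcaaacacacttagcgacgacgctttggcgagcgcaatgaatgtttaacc
epg-9, intron 2, chrIV:2602119-2602219: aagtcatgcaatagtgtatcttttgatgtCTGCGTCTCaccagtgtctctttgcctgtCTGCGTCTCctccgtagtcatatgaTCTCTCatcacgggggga
pqn-41, intron 1, chrIII:1921376-1921476: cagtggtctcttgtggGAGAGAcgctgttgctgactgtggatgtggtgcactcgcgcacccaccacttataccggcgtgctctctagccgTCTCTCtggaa
scc-2, intron 1, chrII:255315-255415: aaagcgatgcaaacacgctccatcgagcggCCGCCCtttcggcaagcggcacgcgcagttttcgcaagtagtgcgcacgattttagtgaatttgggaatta
tbc-6, intron 1, chrII:6849468-6849568: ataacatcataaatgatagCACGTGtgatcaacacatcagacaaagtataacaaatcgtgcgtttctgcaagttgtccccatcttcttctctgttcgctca
rpoa-1, intron 7, chrII:13681214-13681314: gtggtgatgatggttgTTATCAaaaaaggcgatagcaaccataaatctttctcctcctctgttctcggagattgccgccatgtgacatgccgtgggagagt
The D2023.1 window holds CACGTG at 2 positions, and the epg-9 window holds CTGCGTCTC at 2 positions. The first pqn-41 window and the pxn-1 window hold none of the 5 motifs, and the latter lies beside the snoRNA gene ZK994.7.

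The signal of a peak is the authors' own value and can be compared only within a list, here the list made from both replicates together. The highest intronic peak, in intron 4 of D2023.1 (WBGene00014300), had a signal of 1293 and ranked 30 of 3889. Its summit had a signal of 476 in the list of replicate 1 and 770 in that of replicate 2, where it ranked 32 and 28. The next lay in intron 3 of the nearby gene D2023.3, with a signal of 1124, and ranked 31 in replicate 1 and 35 in replicate 2. Both replicates therefore placed these intronic peaks near the top of their own lists. Their summits lay 9853 bp and 9391 bp from the 5′ end of their own gene on chromosome V.

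The third-highest intronic peak separated the replicates. It lay in intron 1 of pqn-41, which encodes a glutamine/asparagine-rich protein required for the death of the male linker cell, with a signal of 939. Replicate 2 ranked this site 39, with a signal of 649, whereas replicate 1 ranked it 325, with a signal of 123. The same intron, 7776 bp long (chrIII:1919901-1927676), held 3 more members, with signals of 577, 516 and 247, and these ranked 96, 101 and 618 in replicate 1 and 105, 215 and 468 in replicate 2. The 4 pqn-41 summits thus stood high in each replicate, with the largest disagreement at the highest of them.

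The remaining members among the 20 highest had signals from 455 to 716. They lay in pxn-1, which encodes a peroxidasin of the extracellular matrix (716), epg-9, an autophagy gene (658), zfp-1, a chromatin-associated zinc finger protein related to human AF10 (569), nhr-19, another nuclear hormone receptor (556), scc-2, the cohesin loader (553), and tbc-6, a predicted Rab GTPase-activating protein (550). Lower in this range were Y43F8B.2 (541), frm-7, a FERM-domain protein (530), Y56A3A.7 (513), Y111B2A.12 (481), the cGMP-dependent protein kinase gene pkg-2 (480), F58G1.7 (478), T28B11.1 (473), the dynein heavy chain gene dhc-4 (467) and pcyt-2.1, a gene of phosphatidylethanolamine synthesis (455). All 20 were found in both replicates, the least evenly in pqn-41 as above and in pkg-2, whose summit ranked 458 in replicate 1 and 121 in replicate 2.

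Over all 584 members the median signal was 101 (quartiles 74.4 and 174, range 61.5 to 1293). Promoter peaks had a median signal of 123, intergenic peaks of 116 and exonic peaks of 84.0. Intronic peaks, which were 15.1% of all nuclear thresholded peaks, numbered 5 among the 100 highest peaks of the list and 67 among the 500 highest, and 45.0% of them stood among its 1944 highest peaks, against 55.6% of promoter peaks and 28.2% of exonic peaks. The lowest members sit at the lower end of the thresholded list, and 5744 peaks of the relaxed list met the same position rule, so the 584 are the 10.2% of them that passed the authors' threshold. The median width of a member was 324 bp.

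Words made of GA repeats marked the intronic summits most. The 13 motifs tested here were chosen with earlier results of these data known, and the adjustment over 13 does not cover that choice. GAGAGA lay within 75 bp of 180 summits (30.8%) and in 7.71% of the windows centred 500 bp to one randomly chosen side of each summit, a ratio of 4.0 (exact McNemar test over members, Benjamini-Hochberg adjusted p over 13 motifs = 1.3e-21). CTGCGTCTC, the word most enriched by ratio, lay at 47 summits (8.05%) and in 0.856% of flanks, 9.4 times as often at summits (exact McNemar test, adjusted p = 8.4e-09). CACGTG, the E-box bound by many bHLH factors, lay at 69 summits (11.8%) against 4.11% of flanks (exact McNemar test, adjusted p = 6.1e-06). CCGCCC lay at 44 summits (7.53%) against 2.74% of flanks (exact McNemar test, adjusted p = 0.00076), and in the highest peaks of replicate 1 alone, with replicate 2 left out, this difference missed the threshold (ratio 1.77, exact McNemar test, adjusted p = 0.059). The GATA-type word TGATAA, for which zinc-finger GATA factors are known, lay at 19.3% of summits against 13.0% of flanks (exact McNemar test, adjusted p = 0.013). TAATTA, the core of many homeodomain sites, was the only one of the 13 that was less frequent at summits past the threshold, at 2.91% against 5.99% (exact McNemar test, adjusted p = 0.029). The last 2 differences were the weakest. That of TGATAA missed the threshold with another random choice of side (exact McNemar test, adjusted p = 0.077). It also missed over members found in both replicates and among the 1944 highest peaks (exact McNemar test, adjusted p = 0.11 and 0.077). TAATTA missed it with flanks centred 300 bp away and among the 1944 highest peaks (exact McNemar test, adjusted p = 0.11 in each). Each of the 2 words passed in the other settings tried.

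The motifs also differed in the peaks that held them. Median signal was 175 over the 44 members with CCGCCC and 99.2 over those without, 147 over the 47 with CTGCGTCTC and 98.5 without, 131 over the 69 with CACGTG and 99.0 without, and 121 over the 180 with GAGAGA and 95.6 without. With TGATAA it was 101, against 100 without. The median distance from the summit to the nearest copy ran from 26 bp for CCGCCC to 36.5 bp for CACGTG. Only copies within 75 bp were counted, and for AGGTCA, which was not more frequent at summits past the threshold, the median was 37.5 bp. At 28 members GAGAGA and CTGCGTCTC occurred together, and 198 members (33.9%) held none of the 13 words. Summits had a median G+C content of 42.7% and flanks of 36.4%, and a median 14.6% of the bases at summits were soft-masked as repeats against 27.8% in flanks; 25.7% of flank centres lay in an exon. The part of base composition and repeats in the motif differences was not tested. The median soft-masked share was 14.6% both with and without GAGAGA, 13.2% with CACGTG and 14.6% without, 0.993% with CCGCCC and 15.2% without, and 5.96% with AGGTCA and 15.2% without.

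The core of nuclear receptor sites was not more frequent at summits past the threshold. AGGTCA lay at 36 summits (6.16%) and at 5.14% of flanks (exact McNemar test, adjusted p = 0.78). Its ratio ran from this lowest value, 1.2, to 1.8 over the settings tried (exact McNemar test, adjusted p from 0.13 to 0.78). A small excess at summits is therefore left undecided. The extended form AAGGTCA lay at 8 summits and 8 flanks. Its ratio ran from 0.86 with replicate 2 left out to 4 with flanks centred 300 bp away (exact McNemar test, adjusted p = 0.18 for the latter). The related AGTTCA lay at 7.71% of summits and 9.76% of flanks (exact McNemar test, adjusted p = 0.45), and in the highest peaks of replicate 2 alone, with replicate 1 left out, it was less frequent at summits (ratio 0.57, exact McNemar test, adjusted p = 0.0057). CAAAGTCCA was at 0 summits, which allows a share of up to 0.630%. TGACTCA lay at 5 summits and 6 flanks. For GTAAACA the counts were 17 and 12, and for TTTCACTTT they were 8 and 8. The 3 members with the receptor core shown next are the highest of their kind found in both replicates or lie in nhr-43 itself, with AGGTCA or AAGGTCA in capitals on either strand, in the same + strand RefSeq windows as above.
pkg-2, intron 4, chrIV:8526228-8526328: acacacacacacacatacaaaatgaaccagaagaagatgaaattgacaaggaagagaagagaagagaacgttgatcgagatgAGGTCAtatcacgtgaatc
tba-7, intron 1, chrIII:11371391-11371491: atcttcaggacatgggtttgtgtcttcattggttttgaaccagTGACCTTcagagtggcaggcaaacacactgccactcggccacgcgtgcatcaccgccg
nhr-43, intron 2, chrIV:11900605-11900705: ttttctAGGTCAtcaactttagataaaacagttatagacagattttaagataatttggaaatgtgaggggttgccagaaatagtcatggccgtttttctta

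Among all possible words of 6 bases, with strands joined, 208 (10%) were more frequent at intronic summits than in flanks and 153 (7.36%) were less frequent, at an adjusted p under 0.05 by the exact McNemar test. The smallest p-values belonged to GAGAGA and its shifted form AGAGAG (26.9% of summits against 6.51% of flanks). Among the words that were more frequent, AGAGAA followed (32.2% of summits against 12.5% of flanks), with the words AAGAGA (30.5% against 13.0%) and AGAGAC (21.7% against 7.02%). The words that were less frequent among the 10 with the smallest p were built of A and T alone: the word AAAATT lay at 24.7% of summits against 50.9% of flanks, the word TAAAAA at 18.8% against 41.1%, the word TTAAAA at 13.2% against 33.7%, the word AAATTA at 13.4% against 30.5% and the word AAAAAT at 32.7% against 53.8%. Words that overlap or share bases are not independent of each other, and the part of the difference in G+C content between summits and flanks was not tested.

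Of 4 motifs compared between classes of peaks, intronic summits differed past the threshold from exonic ones in 3, from promoter ones in 1 and from intergenic ones in 0. These 4 motifs were likewise chosen with earlier results of these data known. GAGAGA lay at 30.8% of intronic summits, 16.2% of exonic summits (two-sided Fisher's exact test, adjusted over 15 tests, p = 3.3e-06), 24.7% of promoter summits (Fisher's exact test, adjusted p = 0.015) and 36.5% of intergenic summits (Fisher's exact test, adjusted p = 0.076). CTGCGTCTC lay at 2.23% of exonic summits (Fisher's exact test, adjusted p = 0.00075) and at 8.0% of promoter and 9.13% of intergenic summits (adjusted p = 1 and 0.63), against 8.05% of intronic ones. CCGCCC lay at 3.07% of exonic summits (Fisher's exact test, adjusted p = 0.012), 10.1% of promoter summits and 6.24% of intergenic summits, and neither of the last 2 differed from the intronic 7.53% past the threshold (adjusted p = 0.14 and 0.51). AGGTCA did not differ past the threshold from any class (adjusted p from 0.16 to 0.77).

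These class differences varied with the peaks and windows used. With replicate 1 left out, GAGAGA no longer differed between intronic and promoter peaks (odds ratio 1.26, Fisher's exact test, adjusted p = 0.081). With replicate 2 left out, 3 further differences passed: GAGAGA was less frequent at intronic than at intergenic summits (odds ratio 0.73, adjusted p = 0.025), CCGCCC less frequent than at promoters (0.62, adjusted p = 0.025) and AGGTCA more frequent than at exonic summits (3.16, adjusted p = 0.0035, all by Fisher's exact test). In 100 bp windows the GAGAGA difference from intergenic summits also passed (odds ratio 0.72, Fisher's exact test, adjusted p = 0.011). In 50 bp windows it missed the threshold (odds ratio 0.75, Fisher's exact test, adjusted p = 0.066). Over the 1944 highest peaks, with 101 exonic peaks left, the 3 differences from exonic peaks missed the threshold (Fisher's exact test, adjusted p from 0.091 to 0.63), with odds ratios of 1.91 for GAGAGA, 3.24 for CTGCGTCTC and 1.54 for CCGCCC, against 2.30, 3.83 and 2.57 over all peaks. Over peaks found in both replicates, GAGAGA still differed from exonic summits (odds ratio 2.64, Fisher's exact test, adjusted p = 3.6e-05). There CTGCGTCTC (odds ratio 2.68) and CCGCCC (2.06) missed the threshold (Fisher's exact test, adjusted p = 0.066 and 0.20).

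Position along the chromosomes was uneven. The introns in which a member could lie, called eligible here (intronic on an autosome, outside promoter windows and over 500 bp from tRNA genes), came to 25.3 Mb and held 23.1 members per Mb (exact Poisson interval 21.3 to 25.1). The middle 50% of the autosomes held 390 members (66.8%, interval 62.8 to 70.6) in 42.6% of the eligible length, or 36.2 members per Mb against 13.4 in the outer parts. The same order held on each autosome, from 42.4 against 24.8 per Mb on chromosome II to 40.3 against 7.21 on chromosome V. Between whole chromosomes, II had the highest density, with 139 members at 32.6 per Mb (27.4 to 38.5). Chromosomes III, IV and V followed with 25.0, 22.8 and 21.6 per Mb, with overlapping intervals, and I had the lowest, with 87 members at 15.8 (12.7 to 19.5).

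First introns, here the first intron of any annotated transcript, held more of the members than their length would give. They held 304 members (52.1%, interval 47.9 to 56.2) in 31.7% of the eligible length, which is 38.0 per Mb (33.8 to 42.5) against 16.2 (14.4 to 18.2) in later introns. Density also differed with intron length, from 13.8 per Mb in introns of 501 to 1000 bp to 31.5 in those of 2001 to 5000 bp and 49.8 in those of 5001 to 10000 bp. First introns stood above later ones in each length class, although the intervals were separate only in introns of 1001 to 2000 bp (36.8 against 11.7 per Mb) and 2001 to 5000 bp (47.5 against 19.9). Distance from the 5′ end of the gene told less: density was 19.0 per Mb at 201 to 1000 bp, 22.2 at 1001 to 2000 bp, 21.8 at 2001 to 5000 bp, 29.9 at 5001 to 10000 bp and 24.7 beyond. When promoter windows were set at the 5′ end of every annotated transcript, 432 members were left and first introns held 46.1% of them. The share of eligible length in first introns was not computed for that rule.

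**Figure D1:**
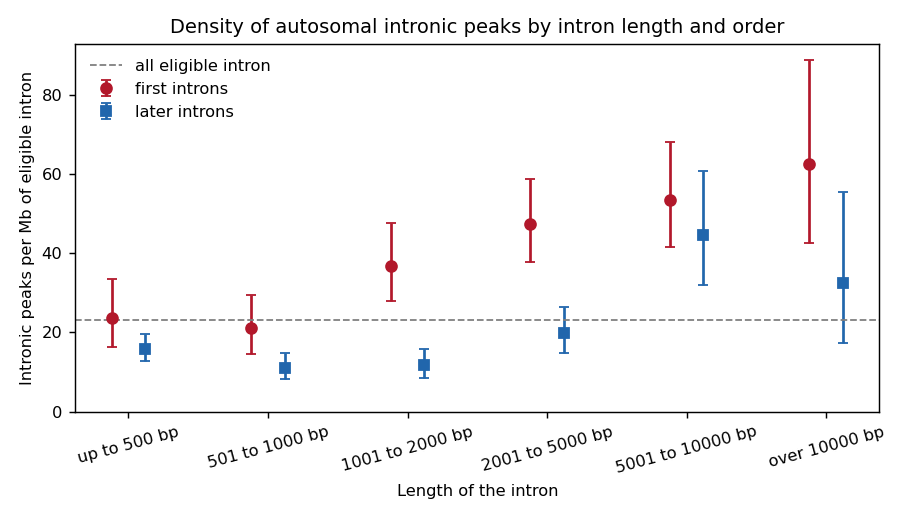
Number of autosomal intronic peaks per Mb of eligible intron (vertical axis) by intron length (horizontal axis), for first introns (circles) and later introns (squares), with exact 95% Poisson intervals as bars; the dashed line is the density over all eligible intron, 23.1 per Mb. First introns run from 23.7 per Mb up to 500 bp to 62.6 per Mb over 10000 bp, and later introns lie below them in each class.

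A promoter window at the gene's 5′ end leaves out transcripts that start further inside, and 152 members (26.0%) lay in the same window of such an internal transcript start. These windows made up 11.1% of the eligible length, so their density was 54.1 per Mb (45.9 to 63.5), against 19.2 (17.5 to 21.1) elsewhere. The other 432 members (74.0%) lay at no annotated start of a protein-coding transcript. Peaks within introns and at the gene's own start also occurred in the same genes: 90 of the 388 host genes (23.2%, interval 19.1 to 27.7) had a thresholded summit in their own promoter window, against 8.85% (8.40 to 9.32) of the 14655 other autosomal genes with eligible intron. Among genes with 5 kb or more of eligible intron the shares were 11.4% of 140 hosts (6.68 to 17.9) and 5.47% of 1060 others (4.18 to 7.02).

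A share of the intronic summits lay beside small RNA genes. Within 500 bp of a snoRNA gene lay 39 members, 6.68% of all, in 0.392% of the eligible length, a density of 394 per Mb (280 to 538), and among the 1944 highest peaks the share was 12.5%. Small nuclear RNA (snRNA) genes, whose products include the spliceosomal RNAs, had 9 members at 230 per Mb, microRNA genes 9 at 183 per Mb and genes annotated only as ncRNA 107 at 78.3 per Mb. Genes for piRNAs, the small RNAs that guide Piwi proteins, had 18 members at 14.0 per Mb. Of the 134 snoRNA genes centred in eligible intron, 37 (27.6%, interval 20.2 to 36.0) had a member within 500 bp, as did 10 of 51 snRNA genes and 8 of 68 microRNA genes.

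At the snoRNA genes the summits lay close to the 5′ end of the RNA. The median summit was 10 bp upstream of it, with quartiles at 45.5 bp upstream and 21.5 bp downstream, and 24 of the 39 summits lay upstream of the gene, 9 inside it and 6 downstream. The median signal of these members was 214 (quartiles 151 and 268), and 33 of 39 were found in both replicates. In 27 of 39 cases the snoRNA gene lay on the strand of the gene that hosts the peak, so in the other 12 it lay on the opposite strand. Not every such snoRNA gene lies inside that host: R166.10, near a member in mnk-1, lies outside mnk-1. The snRNA genes showed the same position, with a median 21 bp upstream, whereas the microRNA summits lay a median 262 bp upstream of the annotated hairpin, 8 of 9 on its upstream side. Some snRNA genes are near-identical copies under one name in the annotation (4 of the 9 are called R07E5.16), so reads could be shared between them and their levels are uncertain.

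The 5 highest members with a noncoding RNA gene in the same intron illustrate this. The D2023.1 summit lay 12 bp inside the ncRNA gene D2023.12 (chrV:11799391-11799530, + strand). In pxn-1 the summit lay 32 bp upstream of the snoRNA gene ZK994.7 (chrV:8500579-8500645, + strand), in an intron of 341 bp, with a signal of 273 in replicate 1 and 422 in replicate 2. The frm-7 summit lay 19 bp inside the snoRNA gene C51F7.4, in an intron of 267 bp, with 181 in replicate 1 and 330 in replicate 2. The F58G1.7 summit lay 30 bp inside the snRNA gene sup-6 on the strand of its host, with 186 and 261. In T28B11.1 the summit lay 215 bp inside the ncRNA gene T28B11.7, with 197 and 285. Among microRNA genes, named here after their values were seen, mir-58a in Y67D8A.2 had a member on each side (signals 268 and 234). A member 349 bp upstream of lin-4, the microRNA that times early larval fates, had a signal of 89.1. That member was not found in replicate 1 and had a signal of only 7.35 in the list of replicate 2. The gene ppfr-1 held members near mir-2 and mir-71. In introns up to 500 bp, 28 of the 120 members (23.3%) were within 500 bp of a snoRNA, snRNA or microRNA gene. The share of the length of these introns near such genes was not computed, so this count has no baseline.

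**Figure D2:**
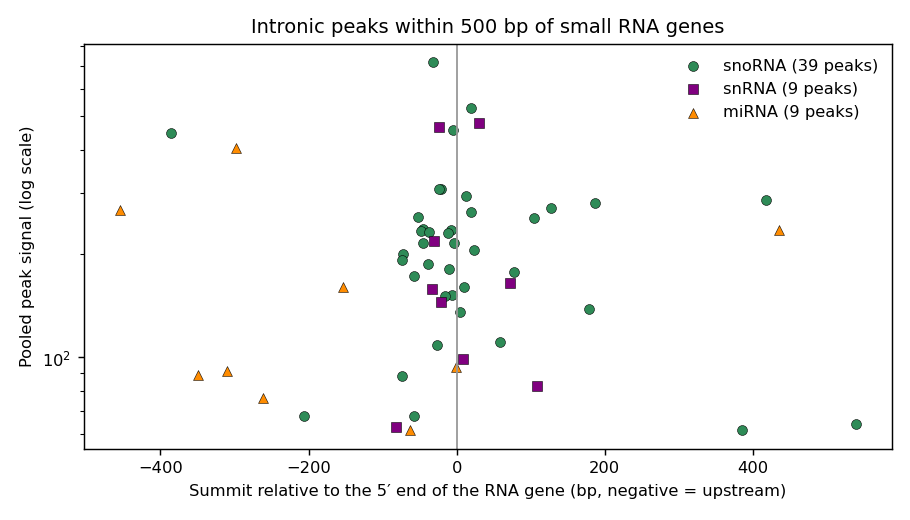
Each point is an intronic peak within 500 bp of a snoRNA (39, circles), snRNA (9, squares) or microRNA gene (9, triangles), placed by the distance in bp of its summit from the 5′ end of the RNA gene (horizontal axis, negative is upstream) and its signal in the list made from both replicates (vertical log axis). snoRNA and snRNA peaks gather around the 5′ end, at medians of 10 and 21 bp upstream, and microRNA peaks lie further upstream, at a median of 262 bp.

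The 584 members lay in 388 genes and 457 introns. A single member was found in 289 genes, 2 or more in 99 genes and 4 or more in 26 genes, which together held 133 members. Within an intron, 76 introns had 2 or more members (203 in all), and neighbouring summits in one intron were a median 1177 bp apart (quartiles 613.5 and 1863 bp). The closest were 199 bp apart, so a single site called at 2 summits could count as 2 members, which was not tested. Of the 26 genes with 4 or more members, 4 also had a summit in their own promoter window.

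T28B11.1 (chrV:10712160-10732422, - strand) and lin-42 (chrII:1233236-1252359, - strand) held the most, with 8 each. In T28B11.1, 7 lay in one intron of 17091 bp, with signals from 63.6 to 473. lin-42, the Period-related gene that times molts and larval cell fates, had its highest member, with a signal of 400, 5315 bp from the 5′ end (137 in replicate 1 and 250 in replicate 2), and its other 7 had signals from 66.6 to 97.8. Of the 8 lin-42 members 5 were found in both replicates and 1 in neither, and 3 lay in the window of an internal transcript start. Its sites were thus 1 high peak and a series close to the threshold.

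By contrast, pkg-2 held 7 members that were all well above the threshold, with signals from 238 to 480. Of these, 6 lay within 4548 bp of one intron of 6824 bp (chrIV:8525261-8532084), and 6 of the 7 were found in both replicates. The related kinase gene egl-4, which acts in chemosensory behaviour and body size, held 4 lower members, with signals from 66.2 to 136 across 18026 bp, and 2 of them were found in both replicates.

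There were 6 genes with 6 members: zfp-1 (highest signal 569, 5 of 6 in both replicates), K11D2.1 (390, 4 of 6), Y62E10A.13 (377, 3 of 6), the protein phosphatase regulatory subunit gene ppfr-1 (332, 6 of 6), daf-5, a Ski/Sno-related partner of the dauer TGF-beta pathway (220, 2 of 6), and the forkhead gene fkh-7 (147, 6 of 6). All 6 members of daf-5 lay in its first intron of 14446 bp, and 4 of them were found in one replicate only. Whether its summits at 11.908 kb (replicate 2 only) and 11.702 kb (replicate 1 only) from the 5′ end are a single site was not tested. Genes with 5 members were D2023.1 (highest signal 1293), mnk-1, a kinase that phosphorylates a translation factor (302), let-526, a subunit of the SWI/SNF chromatin remodeller (275), ifbp-1 (257), nadk-2, an NAD kinase (232), and hlh-30, the worm counterpart of the lysosomal and autophagy regulator TFEB (229). The remaining hosts with 4 members were pqn-41, nhr-19, Y43F8B.2, Y111B2A.12, the RNA polymerase I subunit gene rpoa-1, the FOXO gene daf-16, the bZIP gene atf-7, the sphingomyelin synthase gene sms-1, ccch-1 and the nucleolar size regulator ncl-1. In daf-16, the main transcription factor of insulin signalling, each of the 4 members held GAGAGA, and 1 of the 4 was found in both replicates, with signals from 61.6 to 238. The daf-16 summits at 19.314 kb (replicate 1 only) and 19.518 kb (replicate 2 only) from the 5′ end may likewise be a single site, which was not tested. Similarly close pairs lay in other hosts, among them ppfr-1 (8.402 and 8.601 kb, and 6.81 and 7.014 kb) and K11D2.1 (3.183 and 3.382 kb). D2023.1 (9.853 and 10.052 kb) and pkg-2 (6.754 and 6.955 kb) also held such a pair. Whether the summits of these pairs are single sites was not tested either.

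**Figure D3:**
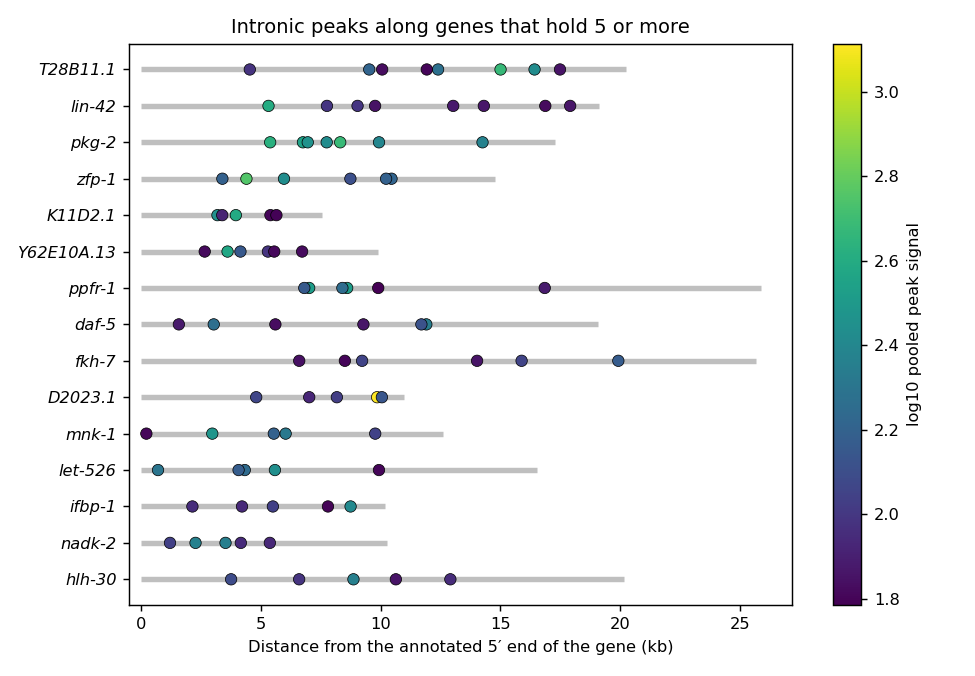
Intronic peaks (points) along the 15 genes that hold 5 or more, placed by distance in kb from the annotated 5′ end (horizontal axis); grey bars give the length of each gene, and colour gives the log10 signal in the list made from both replicates. pkg-2 holds 7 peaks with signals from 238 to 480, whereas 7 of the 8 in lin-42 lie below 98.

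Counted over gene lists that were chosen with earlier results of these data known, members were densest in genes of developmental timing, of bZIP and bHLH factors, of lipid metabolism and of nuclear hormone receptors. The heterochronic list, the genes that order larval stages, had members in 4 of its 10 genes, or 223 per Mb of eligible intron (exact Poisson interval 111 to 399), against 23.1 over all genes. Most of its 11 members, 8 of them, lay in lin-42. Among the 1944 highest peaks the list stood at 3.89 times the density over all genes, in place of 9.64 times, with an interval that included that density. The other hosts were the RNA-binding gene lin-28 (highest signal 189), lin-66 (71.1) and the zinc-finger gene blmp-1 (62.1), with 1 member each. Genes of bZIP and bHLH factors had members in 9 of 52 genes, at 128 per Mb (80.3 to 194), led by skn-1, the Nrf-like regulator of detoxification (419), the infection-response gene zip-2 (287) and hlh-30. The list of zinc-finger, forkhead, Sox and other factors had members in 10 of 67 genes, at 60.9 per Mb (36.1 to 96.3), led by daf-16, klf-1 (213) and the myrf-1 gene of larval development (175).

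Nuclear hormone receptor genes themselves had 25 members in 13 of 242 genes, at 76.6 per Mb (49.6 to 113). Beside nhr-19, nhr-43 and nhr-21 (296), the hosts were nhr-34, nhr-66, nhr-31, nhr-273, nhr-23, nhr-62, nhr-46, nhr-85, nhr-114 and nhr-49, with highest signals from 79.4 to 210. Of these, nhr-23 is required for molting, nhr-85 acts in developmental timing and nhr-49 regulates fatty acid metabolism. The 4 members of nhr-19 had signals of 556, 210, 154 and 61.5, and all were found in both replicates. The 3 highest lay in its first intron of 4213 bp, each with GAGAGA.

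Lipid metabolism genes had members in 10 of 132 genes, at 84.6 per Mb (47.3 to 139), led by the lipase gene lips-10 (279), the acetyl-CoA carboxylase gene pod-2 (144) and the fatty acid desaturase gene fat-3 (141). The list of TGF-beta, Wnt, Notch, insulin and Ras signalling had members in 6 of 50 genes, at 47.5 per Mb (24.5 to 82.9), led by lag-1, the DNA-binding effector of Notch (271), daf-5 and the ERK gene mpk-1 (113). Genes of epidermis, apical matrix and molting had members in 7 of 42 genes, at 50.3 per Mb (21.7 to 99.0), led by myrf-1, mlt-10 (175) and bed-3 (145), and the cuticle collagens in 2 of 111, col-72 (86.7) and col-159 (67.9). The intervals of both lists include the density over all genes. That of the epidermis list lay above it with replicate 1 left out (2.92 times the density over all genes), with replicate 2 left out (3.22 times) and over members found in both replicates (2.50 times).

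Members were sparse in homeobox, chemoreceptor, ion channel and adhesion genes. Homeobox genes had 0 members in 69 genes, which allows up to 17.9 per Mb. Chemoreceptor genes had 5 members in 4 of 1306 genes, at 5.29 per Mb (1.72 to 12.4), in srh-2 (249), srv-2 (172), srt-52 (131) and str-176 (67.7). Ion channel and neurotransmitter receptor genes had members in 6 of 139 genes, at 10.5 per Mb (3.84 to 22.8), led by the potassium channel gene twk-5 (254), whose summit lay 104 bp from the 5′ end of a snoRNA gene, the chloride channel gene clh-1 (169) and the glutamate receptor gene glr-2 (99.3). Adhesion and guidance genes had 4 of 47, at 8.24 per Mb (2.25 to 21.1), led by the spectrin gene unc-70 (192), the perlecan gene unc-52 (89.1) and the L1-type adhesion gene sax-7 (77.9). The other lists had few members: 3 in 183 xenobiotic metabolism genes, in cyp-36A1 (276), haf-9 (236) and cyp-13A3 (89.5), 1 in 29 body wall muscle genes, in unc-52, and 0 in 37 cytosolic ribosomal protein genes, whose eligible introns are too short for a density to be read (the interval runs to 831 per Mb). With replicate 1 left out, the intervals of the signalling, ion channel and adhesion lists included the density over all genes (1.34, 0.589 and 0.523 times that density). The same 3 intervals included it over members found in both replicates (1.80, 0.396 and 0.468 times) and among the 1944 highest peaks (2.28, 0.335 and 0.198 times). The homeobox list had members with replicate 2 left out (0.415 times that density), and its interval then included it, as it did in both of those smaller sets of members, where it held 0. The interval of the chemoreceptor list included it among the 1944 highest peaks (0.407 times), and that of the muscle list, with 0 members, lay below it with replicate 2 left out. Lists were not matched for intron length or place on the chromosome, and the part of either in these densities was not tested.

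**Figure D4:**
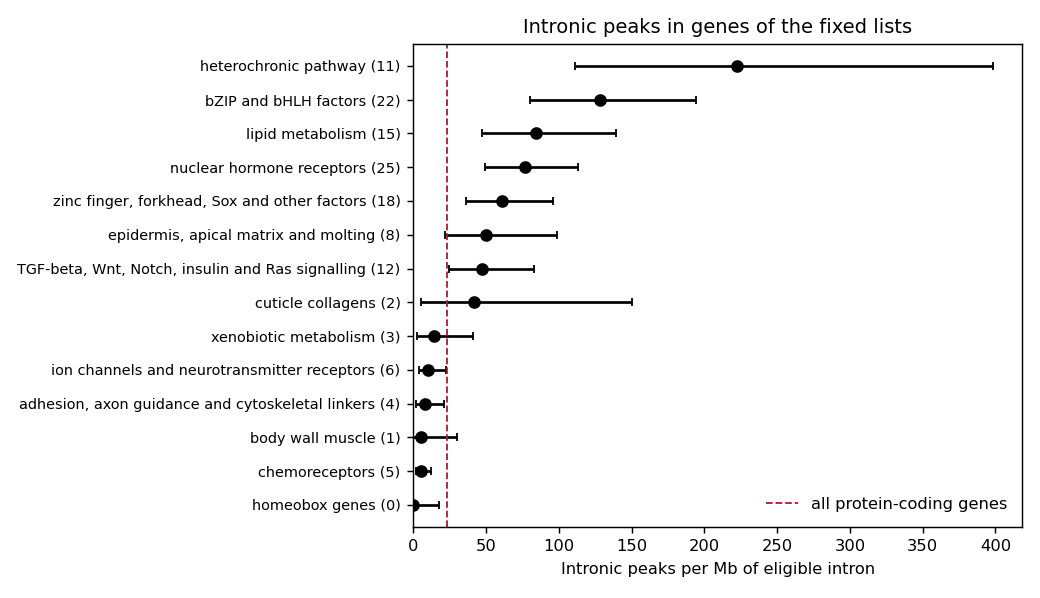
Intronic peaks per Mb of eligible intron (horizontal axis) in the genes of 14 lists (1 line each, with the number of peaks in brackets), with exact 95% Poisson intervals as bars; the dashed line is the density over all protein-coding genes, 23.1 per Mb. The heterochronic list stands at 223 per Mb, and homeobox genes hold 0 peaks.

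The gene nhr-43 was itself a host. One member lay in its intron 4, of 381 bp, with a signal of 417 (rank 214), and had 228 in replicate 1 and 195 in replicate 2, where it ranked 103 and 310. The other lay in intron 2, of 448 bp, with a signal of 196 (rank 839), but ranked 6534 in replicate 1 and 2881 in replicate 2. This second site is the nhr-43 window printed above with AGGTCA. Because the strain carries a transgene that encodes NHR-43, reads from the transgene can map to these introns, and its part in both peaks was not tested.

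A member counted as found in a replicate when that replicate's relaxed list had a summit within 100 bp. The thresholded list is labelled as selected by irreproducible discovery rate (IDR), a measure of agreement between ranked lists. Part of the agreement below can therefore come from how the members were chosen, and this part was not tested. Both replicates held 445 members (76.2%, interval 72.5 to 79.6), beside 78.1% of all 3870 nuclear thresholded peaks; when only summits within 50 bp counted, the share of members was 48.5%. Replicate 2 held 91.6% of members and replicate 1 83.0%, with 90 members in replicate 2 only, 40 in replicate 1 only and 9 in neither. The share found in both fell with signal, from 94.5% of the 146 highest members to 82.9%, 69.2% and 58.2% of the next groups of 146. Across the 445 members found in both, the replicate signals had a Spearman's rho of 0.627, as a description across peaks that share their libraries. A stricter count, with a summit among each replicate's own 3889 highest peaks, held 46.4% of members.

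Found in both replicates were 83.3% of promoter peaks, 77.9% of intergenic peaks and 58.1% of exonic peaks. The intronic share was below that of promoters (odds ratio 0.64, Fisher's exact test, adjusted p = 0.0015) and above that of exons (odds ratio 2.31, adjusted p = 1.1e-07), and did not differ past the threshold from intergenic peaks (adjusted p = 0.62). Among the 1944 highest peaks of the list, where 89.7% of intronic peaks were found in both, the difference from promoters missed the threshold (odds ratio 0.64, Fisher's exact test, adjusted p = 0.21). It also did so when summits within 200 bp counted (odds ratio 0.85, Fisher's exact test, adjusted p = 0.51).

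**Figure D5:**
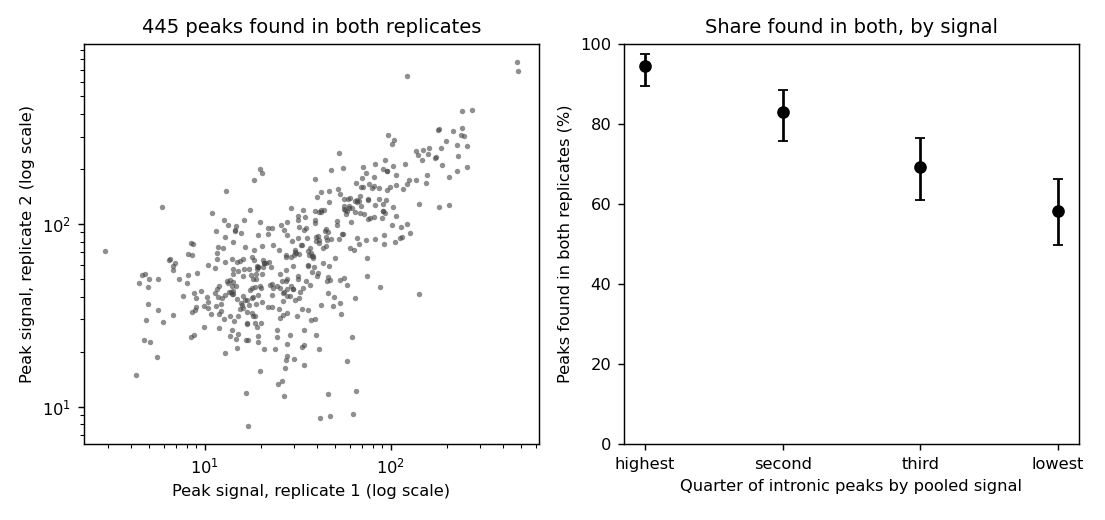
Left, signal of the 445 intronic peaks found in both replicates in the list of replicate 1 (horizontal log axis) and of replicate 2 (vertical log axis), 1 point per peak. Right, percent of intronic peaks found in both replicates by signal in the list made from both, in 4 groups of 146 peaks, with exact 95% binomial intervals; the share falls from 94.5% to 58.2%.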

How the data were processed

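The deposited ce11 lists hold a signal per peak, a value the authors computed; it ranks peaks within a list only. Per the readme in the deposited files, the thresholded list derives from both replicate lists and their pool. Its name gives IDR as the method of selection. For the aligner, the peak caller, the threshold value and the read depth, nothing is stated: not given in the sources used here. Precision from depth could therefore not be computed. Relaxed lists held 29315 peaks (replicate 1) and 30000 (replicate 2 and pooled).

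Summits were placed on the Ensembl release 115 annotation and the RefSeq WBcel235 genome with Python 3.11.15, numpy 2.4.6 and scipy 1.17.1. Motifs were searched on both strands, letter by letter; AGGTCA lies within AAGGTCA, and GAGAGA and CTGCGTCTC can share 4 bases. Each member's flank was its own control in exact McNemar tests, and classes were compared by two-sided Fisher's exact tests, with Benjamini-Hochberg adjustment at 0.05. Intervals are exact (Clopper-Pearson or Poisson, 95%) and cover counting error only. Sites are not replicates, so p-values describe these libraries. Eligible length counts each base once.

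Named were the 20 highest members, hosts with 4 or more, 3 hosts per list, the 5 highest beside a noncoding RNA gene and the 10 6-base words with the smallest p. Members, lists and motifs were chosen with earlier results of these data known. Alternatives covered single replicates, windows, distances, flanks and the highest peaks. Statistics were tested on simulated data. Lists on ce10 were not used.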

Additional observations from a re-analysis of the deposited data

How the results depend on the processing

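Replicate 1 was left out by taking the 3889 highest peaks of replicate 2 alone, and the reverse. Over these 2 settings the number of members was 592 to 598, the share in first introns 49.5% to 51.0%, the share in the middle 50% of the autosomes 64.7% to 66.1%, the share near snoRNA genes 5.85% to 5.91%, the share at internal starts 25.5% to 25.8%, the number of motifs past the threshold 5 to 7 (6 with all members), of 6-base words 301 to 313 (361), of gene lists whose interval lay above the overall density 6 to 7 (6, and 4 among the 1944 highest peaks), and of motif differences between classes 3 to 7 (4). Windows at every transcript start left 432 members and moved the first-intron share to 46.1%; the other position rules gave 495 to 635 members, and leaving out exons of noncoding genes gave 529. The share found in both replicates was 48.5% when summits within 50 bp counted and 91.3% at 200 bp, and 89.7% among the 1944 highest peaks; at 200 bp and among those peaks 1 class differed in it in place of 2. Among the 1944 highest peaks 235 words and 1 motif difference passed, with fewer members by construction, and 12.5% of members were near snoRNA genes. Windows of 50 bp gave 228 words, and members found in both replicates gave 2 motif differences; the cause was not tested. Directions turned only in comparisons that missed the threshold in both settings. The ratio of TGACTCA was 1.29 without replicate 1 and 0.71 without replicate 2, 1.38 in 100 bp windows and 2.5 with another choice of side. That of GTAAACA was 0.85 without replicate 2, 1.07 without replicate 1 and 0.38 among the 1944 highest peaks. Odds ratios against intergenic peaks were 1.08 for CTGCGTCTC and 0.90 for AGGTCA without replicate 1 (0.965 and 1.15 without replicate 2), and 1.14 for the share found in both replicates among the 1944 highest. The odds ratio of CTGCGTCTC against promoters was 0.993 without replicate 2, 1.11 without replicate 1 and 0.982 in 50 bp windows. All settings for snoRNA genes, internal starts and gene lists, and the first-intron and chromosome shares over members found in both replicates, were added after seeing the data. No paired analysis was possible because the 2 replicates form 1 group. The depth of the libraries is unknown here, so the signal of low peaks has no interval.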
